A study of Homo sapiens with 8 samples.

Results

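Open chromatin at the genes of the V(D)J recombination machinery was described in the peak lists of 8 assay for transposase-accessible chromatin (ATAC-seq) libraries. The members were RAG1 and RAG2, covered by a 200 kb window at chr11:36500001-36700000, and DNTT, covered by a 70 kb window at chr10:98050001-98120000 (hg19). Every peak that overlapped a window by at least 1 bp was taken. Peaks of the 8 lists that shared at least 1 bp were merged into regions, which gave 32 regions in the RAG window and 9 in the DNTT window. These 41 regions were part of 133028 regions in all.

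RAG1 and RAG2 together form the recombinase that cuts DNA at the recombination signal sequences beside the V, D and J segments of antigen receptor genes. DNTT encodes terminal deoxynucleotidyl transferase, which adds untemplated nucleotides to the cut ends before they are joined. All these genes are active in developing lymphocytes, and B-cell acute lymphoblastic leukaemia (B-ALL) arises from B-cell precursors.

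The libraries came from 697 and KOPN-8, human B-ALL lines. Each line had 2 libraries of cells given an empty sgRNA vector, labelled SETD2 wild type, and 2 libraries of a clone given an sgRNA against SETD2 and labelled as a heterozygous knockout (BM_B in 697, BA in KOPN-8). SETD2 is the methyltransferase that trimethylates lysine 36 of histone H3. Each SETD2 arm was 1 clone, so an effect of the genotype and a property of the clone cannot be told apart. Duplicates are labelled as biological, but how their cultures were separated is not said, so p-values measure only the spread between these samples. A peak list holds no read counts, so the depth behind each peak is unknown. In a bulk library, a site open in fewer cells and a site less open in each cell cannot be told apart. The lists held 57154 to 76495 peaks.

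The hg19 gene models were not analysed here, so no peak was assigned to a promoter, exon or intron, and the place of the genes inside the windows was not checked. In the RefSeq order of genes (GRCh38.p14), RAG1 and RAG2 are neighbours between TRAF6, a ubiquitin ligase of innate immune signalling, and IFTAP. DNTT lies between BLNK, an adaptor of the B-cell receptor, and OPALIN. A peak in a window can therefore belong to one of these neighbours.

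To show what the start of a V(D)J gene looks like, the 250 bases before the RefSeq start of RAG2 (chr11:36598237-36598486, minus strand) and of DNTT (chr10:96304184-96304433, plus strand) are given 5′ to 3′ from GRCh38.p14. Capitals mark E-boxes (CANNTG, the site class bound by E proteins).
RAG2: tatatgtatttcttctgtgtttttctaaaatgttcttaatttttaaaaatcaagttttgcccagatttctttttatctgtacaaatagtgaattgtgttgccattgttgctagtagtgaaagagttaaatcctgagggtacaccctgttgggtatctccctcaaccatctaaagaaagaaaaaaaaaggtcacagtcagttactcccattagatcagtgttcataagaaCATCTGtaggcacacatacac
DNTT: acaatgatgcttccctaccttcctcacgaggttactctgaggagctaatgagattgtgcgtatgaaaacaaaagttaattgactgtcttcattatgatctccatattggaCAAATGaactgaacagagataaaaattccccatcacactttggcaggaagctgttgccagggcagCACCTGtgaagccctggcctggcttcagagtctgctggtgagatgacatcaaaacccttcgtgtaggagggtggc
The RAG2 sequence held 1 E-box and the DNTT sequence 2, and 61.8% of 35116 RefSeq start regions of this length held at least 1. The sequence before RAG1, with a GC content of 70% and 1 E-box, is not printed because its listed start lies beside that of TRAF6. The GC content was 34% before RAG2 and 46.4% before DNTT. The core GGGAA, searched on both strands and shared by Ikaros sites, was found 2 times before DNTT and 0 times before RAG2, against 59% of all start regions with a match. These positions are of another build than the peaks and were not converted, so no peak was placed on them.

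The RAG window was one of the densest stretches of peaks in these lists. The 697 controls had 26 and 25 peaks there and the 697 clone 27 and 30, while the KOPN-8 controls had 26 and 24 and the KOPN-8 clone 24 and 24. The mean over the 8 libraries was 25.8 peaks, against a mean of 4.85 and a median of 3.75 over 13766 tiles of 200 kb. Only 2 of these tiles (0.0145%) reached the mean of the RAG window. Tiles without a peak in any list were left out, here and for the tiles of 70 kb below. This raises the means and shares of tiles, and the 2 tile sizes do not cover the same part of the genome. Against flanks of its own width, the window held 12.9 ± 1.03 peaks per 100 kb and the flanks 6.44 ± 0.832 (SD, n = 8), a log2 ratio of 1.01 ± 0.16.

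The DNTT window was sparser. The 697 controls had 6 and 7 peaks and the 697 clone 8 and 8, while the KOPN-8 controls had 5 and 3 and the KOPN-8 clone 4 and 4. Its mean of 5.62 peaks was reached by 1688 of 34860 tiles of 70 kb (4.84%). The density of 8.04 ± 2.75 peaks per 100 kb lay near that of its flanks, 8.57 ± 1.27 (SD, n = 8), and the log2 ratio was -0.16 ± 0.50. With flanks of 1 Mb the ratio turned to 0.84, and that of the RAG window rose to 1.92, so how the DNTT window stood against its surroundings depended on the flank.

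**Figure D1:**
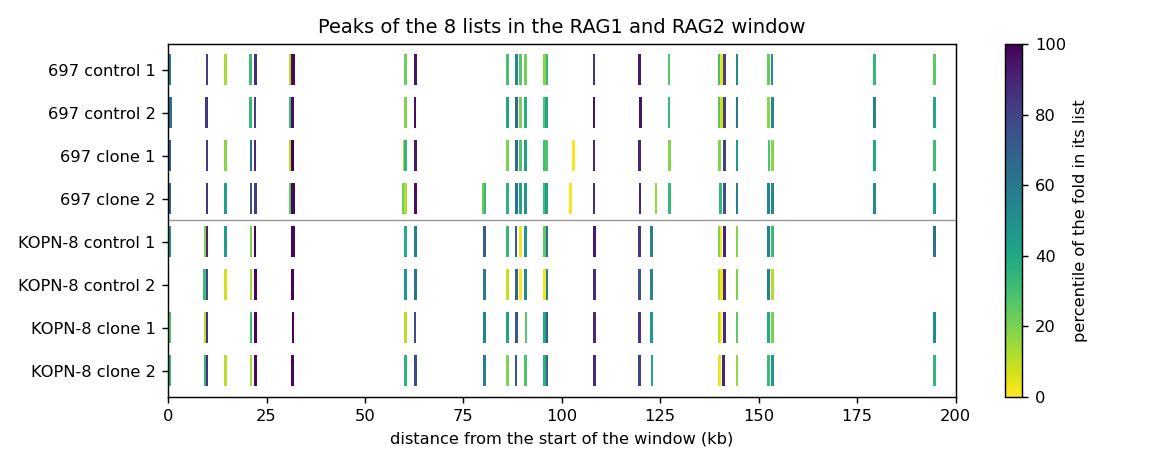
Peaks of each library (1 line each) in the RAG1 and RAG2 window, by distance from the start of the window in kb; the colour is the percentile of a peak's fold within its list, and peaks under 0.7 kb are drawn 0.7 kb wide. Most positions are filled in all 8 libraries, which hold 24 to 30 peaks each.

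**Figure D2:**
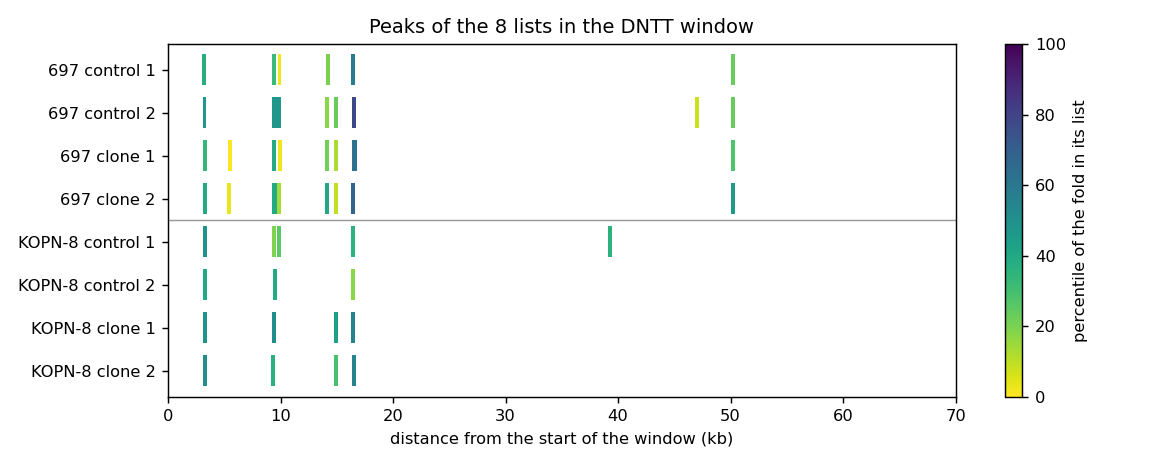
Peaks of each library in the DNTT window, drawn in the same way with a least width of 0.35 kb. The 697 libraries hold 6 to 8 peaks and the KOPN-8 libraries 3 to 5.

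Between the lines, the DNTT window held more peaks in 697. All 4 libraries of 697 (7.25 ± 0.957 peaks, SD, n = 4) lay above all 4 of KOPN-8 (4 ± 0.816), a difference of 3.25 peaks. The exact permutation p was 0.0286, the smallest that 4 against 4 allows, and 0.0571 after Benjamini-Hochberg adjustment over the 6 line tests, so the difference did not pass 0.05. The same exact permutation p and adjusted p were found per 10000 peaks of a list (1.09 ± 0.121 against 0.599 ± 0.0981, n = 4 each) and for bases under peaks (2156 ± 363 against 1144 ± 334 bp). The difference in peaks was 1.5 with all lists cut to the length of the shortest (adjusted exact permutation p = 0.0857) and 0 with the strongest 50% of each list. More peaks in every 697 library than in every KOPN-8 library were also found in 10.2% of the 70 kb tiles. The peaks were 6 and 7 against 5 and 3 in the controls and 8 and 8 against 4 and 4 in the clones. The same order within each arm follows from the separation of all libraries and adds no support to it.

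In the RAG window the lines overlapped. 697 had 27 ± 2.16 peaks and KOPN-8 24.5 ± 1 (SD, n = 4 each; two-sided exact permutation p = 0.0857, adjusted 0.114). The difference of 2.5 peaks was 4 with lists of equal length (adjusted exact permutation p = 0.0857), 0 with the strongest 50% of each list and 1.5 without the second library of the 697 clone. In 15.1% of 200 kb tiles every 697 library had more peaks. Bases under peaks were 10595 ± 1121 bp in 697 and 9518 ± 553 bp in KOPN-8, with an adjusted exact permutation p of 0.114 (n = 4 each).

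**Figure D3:**
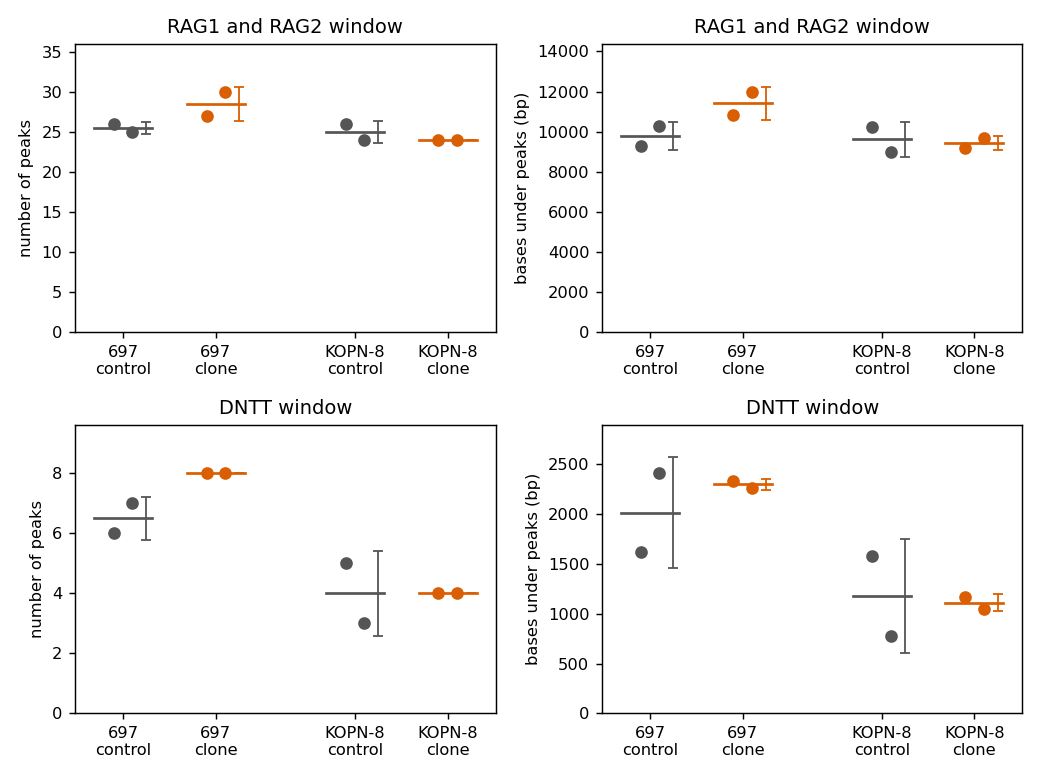
Number of peaks (left) and bases under peaks in bp (right) in the RAG window (top) and the DNTT window (bottom); points are libraries, horizontal lines group means and bars 1 SD (n = 2). In the DNTT window all 697 points for peaks lie above the KOPN-8 points, and in the RAG window the lines overlap.

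Between a clone and its controls, neither window showed a difference that this design could call, since 2 against 2 libraries cannot go below an exact permutation p of 0.333 and both lines together cannot go below 0.0556. In the RAG window the 697 clone had 3 more peaks than its controls (28.5 ± 2.12 against 25.5 ± 0.707, n = 2 each, exact permutation p = 0.333) and the KOPN-8 clone 1 fewer (24 ± 0 against 25 ± 1.41, exact permutation p = 1). The 2 libraries of the 697 clone lay above both controls in number of peaks. Per 10000 peaks of a list the groups overlapped, with 4.28 and 3.92 in the clone and 4.55 and 3.57 in the controls. Nothing is read from the separation in number. Over both lines the mean difference was 1 peak (exact permutation p = 0.667). The 697 difference was 0.5 peaks both with all lists cut to the length of the shortest and with the strongest 50% of each list. It was 1.5 peaks without the second library of the 697 clone, which held 30 peaks and came from the longest list, and 4.5 without the first.

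At DNTT the 697 clone had 8 ± 0 peaks and its controls 6.5 ± 0.707 (n = 2 each, exact permutation p = 0.333). That difference of 1.5 peaks was 0 both with all lists at equal length and with the strongest 50% of each list. The KOPN-8 groups both had 4 peaks on average, with SDs of 0 in the clone and 1.41 in the controls. Over both lines the difference was 0.75 peaks (exact permutation p = 0.444). Bases under peaks differed by 1622 bp in the RAG window of 697 (11406 ± 808 in the clone, 9784 ± 701 in the controls, exact permutation p = 0.333, n = 2 each) and by -195 bp in that of KOPN-8 (exact permutation p = 1). The 697 value was 959 bp with lists of equal length, 201 bp with the strongest 50% of each list and 1050 bp without the second clone library.

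In the lists at full length, most regions of the RAG window were called in every library. Of its 32 regions 18 (56.2%) had a peak in all 8 lists, against 20.4% of all 133028 regions. Of the 9 regions of the DNTT window 3 (33.3%) did. With all lists at equal length, 12 regions of the RAG window and 3 of the DNTT window did, so the RAG count depended on list length. The overlap of bases between lists, given without a test, was lower on average between the lines than between the arms of a line. For RAG the Jaccard index (shared bases over all covered bases) was 0.713 to 0.786 between duplicates, 0.733 on average between the arms of 697, 0.749 between those of KOPN-8 and 0.607 (0.549 to 0.646) between lines. For DNTT it was 0.478 to 0.796 between duplicates, 0.627 (0.598 to 0.644) between the arms of 697, 0.497 (0.415 to 0.59) between those of KOPN-8 and 0.399 (0.297 to 0.49) between lines, so the last 2 ranges overlapped.

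The deposited value of a peak was read as the authors' fold enrichment. Lists were compared by it only as a rank within a list, a percentile from 0 (weakest) to 100. Folds of single libraries are printed as a description. The strongest region of the RAG window was chr11:36531243-36532227. The fold there was 15.6 and 15.2 for the 697 controls, 18.3 and 17.1 for its clone, 16.3 and 17.5 in the KOPN-8 controls and 17.2 and 17.1 in the KOPN-8 clone. Its percentile lay between 96.8 and 99.4 in every library, and the lines overlapped.

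The next strongest was chr11:36521812-36522534, 21.8 kb into the window. Its percentile was 87.4 and 81.8 in 697 controls, 89.8 and 82.4 in its clone, 99.5 and 98.5 in the KOPN-8 controls and 99.1 and 98.0 in the KOPN-8 clone. Every KOPN-8 library ranked it above every 697 library, by 13.4 points on average. The region at chr11:36562500-36562967 had the opposite pattern. Its percentile was 95.3 and 96.1 in 697 controls and 93.7 and 96.2 in its clone, against 56.5 and 63.1 in the KOPN-8 controls and 76.6 and 78.2 in the KOPN-8 clone. The means were 95.3 ± 1.15 and 68.6 ± 10.5 (SD, n = 4 each). The remaining top regions were chr11:36607836-36608485 (median percentile 88.3), whose lines overlapped, and chr11:36619509-36620208 (median 87.2), which ranked 10.7 points higher in 697.

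Of the 18 regions shared by all lists in the RAG window, 4 had a higher percentile in all 697 than in all KOPN-8 libraries and 4 a lower one, against 19.0% and 13.3% of all 27107 shared regions. The other regions higher in 697 were chr11:36520848-36521219 (50.6 ± 21.8 against 19.1 ± 7.67) and chr11:36644354-36644648 (53.7 ± 6.24 against 19.7 ± 3.36). Those higher in KOPN-8 were, besides chr11:36521812-36522534, chr11:36588051-36588626 (72 ± 1.76 against 62.1 ± 6.35), chr11:36595960-36596429 (65.7 ± 6.56 against 36.3 ± 7.08) and chr11:36640766-36641543 (89.6 ± 1.17 against 80 ± 3.2). In the DNTT window 1 of 3 shared regions was higher in 697 and 0 were lower. It was the strongest of that window, chr10:98066291-98066831, with 58.6 and 78 in 697 controls, 62.2 and 67.9 in its clone, 35.8 and 17.5 in the KOPN-8 controls and 55.3 and 54.9 in the KOPN-8 clone.

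The library values show how wide these gaps were. At chr11:36644354-36644648 the percentiles were 52.3, 59.4, 45.6 and 57.8 in 697, with the controls first, and 18.3, 19.7, 24.3 and 16.4 in KOPN-8. At chr11:36595960-36596429 they were 33.1, 41.5, 27.9 and 42.7 in 697 and 64.3, 57.2, 72.3 and 69 in KOPN-8. In both, every library of one line lay well apart from every library of the other. At chr11:36640766-36641543 the 697 values were 80.4, 82.3, 81.8 and 75.3 and the KOPN-8 values 90.3, 88.4, 88.9 and 90.8. At chr11:36588051-36588626 they were 52.9, 67.2, 65.1 and 63.2 against 71.3, 70, 72.4 and 74.2. At chr11:36619509-36620208 they were 93.6, 95.1, 89.3 and 90.1 against 84.9, 75.4, 85 and 80.1. In these 3 regions the nearest libraries of the lines lay closer together than in the first 2.

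The test across shared regions could not call a single region by its own gap, however wide. The smallest exact permutation p was 0.0286, the least that 4 against 4 libraries allow, and its adjusted value depends on how many regions reach it. Of 27107 regions, 8772 had an unadjusted p under 0.05. The smallest Benjamini-Hochberg adjusted p was 0.0883, so 0 of 27107 regions passed 0.05, which is not read as a lack of difference. Percentiles of lists of different lengths are not on 1 scale. With all lists at the length of the shortest, 12 regions of the RAG window and 3 of the DNTT window were called in all lists. Of those in the RAG window 3 were higher in 697 and 4 in KOPN-8, and of those in the DNTT window 1 and 0.

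The remaining 10 shared regions of the RAG window overlapped between the lines. By their start on chromosome 11 they were 36509562, 36531243, 36560109, 36585998, 36590656, 36595159, 36607836, 36639781, 36652290 and 36653064, and their line differences ran from -14.9 to 16 points. The other shared regions of the DNTT window were chr10:98053077-98053437 (39.2 ± 5.69 in 697, 46.8 ± 4.8 in KOPN-8) and chr10:98059192-98060034 (39.3 ± 6.03 and 38 ± 10.6), which overlapped too.

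**Figure D4:**
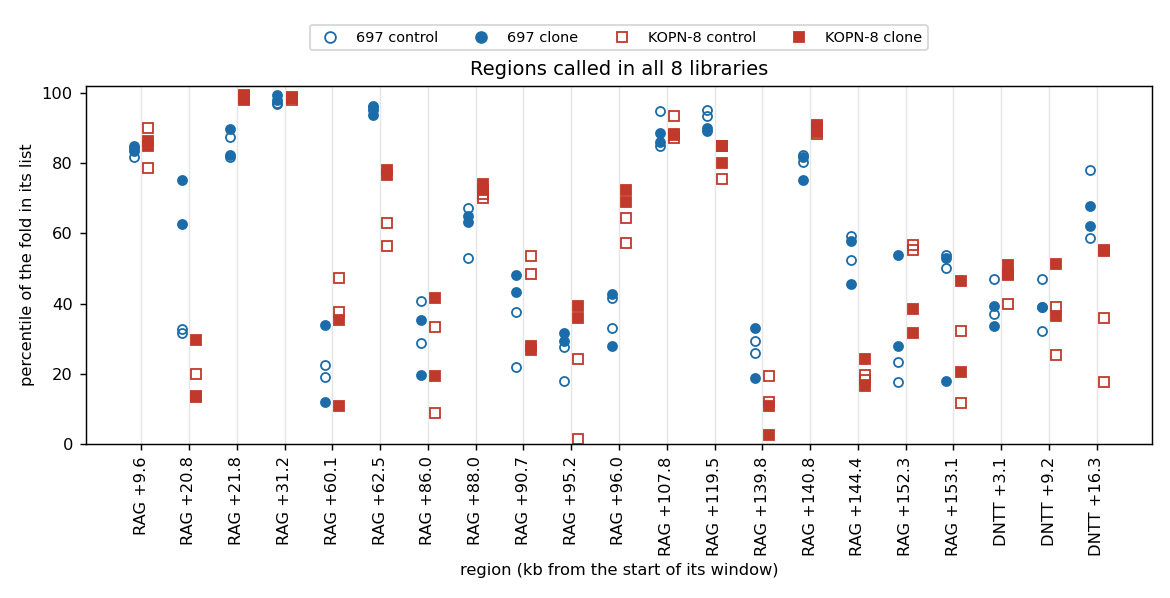
Percentile of the fold within its list (vertical axis) of the 21 regions called in all 8 libraries, named by window and distance from its start in kb; circles are 697, squares KOPN-8, open symbols controls and filled symbols clones. The region at +62.5 kb of the RAG window has its 697 circles at 93.7 to 96.2 and its KOPN-8 squares at 56.5 to 78.2.

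The order of 2 regions within a list does not depend on the length of the list. Of 153 pairs of shared regions in the RAG window, 12 (7.84%) stood in one order in all 697 lists and in the other in all KOPN-8 lists, against 6.03% of 48532 pairs of shared regions that lay in the same 200 kb tile of the genome. The share in the RAG window was near that background. The region chr11:36562500-36562967 took part in 5 of the 12 pairs, above the other region in every 697 list, and chr11:36644354-36644648 in 3. Of the 3 pairs of the DNTT window 0 changed order.

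Some regions were called in 1 line only. In the RAG window 3 of 32 (9.38%) had a peak in all 4 libraries of 697 and none of KOPN-8, against 5.85% of all regions, and 2 (6.25%) the reverse, against 7.30%. The 697 regions were chr11:36530834-36531114 (control folds 3.64 and 4.41, clone folds 3.71 and 4.11), chr11:36627099-36627650 (4.51, 4.48, 4.18 and 4.64) and chr11:36679207-36679625 (4.95, 6.13, 5.37 and 6.01). The KOPN-8 regions were chr11:36509135-36509509 (control folds 3.92 and 4.89, clone folds 3.6 and 4.93) and chr11:36622487-36623081 (6.28, 6.36, 5.56 and 5.41). The percentiles of these folds ran from 10.6 to 56.7. With all lists at equal length, chr11:36530834-36531114 was called in 3 lists of 697 and chr11:36509135-36509509 in 2 of KOPN-8. The others were still called in all 4 lists of their line. Merging within 100 bp joined chr11:36509135-36509509 to the region called in all lists that starts at 36509562.

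Around DNTT, 2 of 9 regions (22.2%) were called in 697 only and 0 in KOPN-8 only. They were chr10:98064025-98064308 (control folds 4.21 and 3.73, clone folds 4.29 and 5.05) and chr10:98100109-98100379 (4.37, 4.02, 4.63 and 5.56). With all lists at equal length, only the second was still called in all 4 lists of 697.

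In each window at most 1 region was gained and at most 1 lost in a clone. These counts are too small to read against the share over all regions. Regions gained in 697, called in both clone libraries and neither control, numbered 1 of 32 (3.12%) in the RAG window. In the DNTT window they numbered 1 of 9 (11.1%), and over all regions the share was 3.08%. They were chr11:36559743-36559983 (fold 3.85 and 3.99) and chr10:98055289-98055642 (2.45 and 2.89), and the second ranked at percentiles of 0.145 and 3.21. Regions lost in the 697 clone numbered 0 in both windows, against 1.32%. In KOPN-8, 1 region of the DNTT window (11.1%) was gained, against 2.45% of all regions. In the RAG window 1 region (3.12%) was lost in KOPN-8, against 2.59%. The gained region was chr10:98064781-98065069 (fold 5.45 and 4.7 in the clone), which 3 of the 4 lists of 697 also held. The lost region was chr11:36589285-36589658, with folds of 2.92 and 2.88 in the controls at percentiles of 1.73 and 1.03, near the bottom of their lists. With all lists at equal length, neither region gained in the 697 clone was gained, and the lost region was called in 0 KOPN-8 lists. The RAG window still had 1 region lost in KOPN-8 at that length, so it was another region.

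Within regions called in all 4 libraries of a line, both libraries of the 697 clone ranked 7 of 24 regions of the RAG window above both controls and 1 below, against 23.1% and 14.9% of 42425 regions. With all lists at equal length the split was 3 above and 8 below, so nothing is read from it. In KOPN-8 it was 4 above and 6 below of 21 regions, against 21.9% and 23.4% of 44739. For DNTT the clone ranked 2 of 5 regions higher in 697 and 2 of 3 in KOPN-8, and 0 lower in either. With all lists at equal length the 697 split turned to 0 higher and 2 lower, so no direction is read from it.

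The widest gap was at chr11:36520848-36521219, where the 697 clone stood at 62.6 and 75.2 and its controls at 31.7 and 32.7. In KOPN-8 the same region had control percentiles of 19.9 and 13.3 and clone percentiles of 29.7 and 13.6, so those groups overlapped. By order within lists, this region stood above 4 others in both 697 clone libraries and below them in both controls. In all, 18 of 276 pairs (6.52%) of the RAG window changed order between the 697 arms, against 3.66% of 104794 pairs, and 6 of 210 (2.86%) between the KOPN-8 arms, against 5.19% of 130761. The region chr11:36652290-36652939 took part in 6 of the 18 pairs, above the other in the clone. Around DNTT 0 of 10 pairs changed order in 697 and 1 of 3 in KOPN-8, where chr10:98066291-98066831 stood above chr10:98053077-98053437 in the clone.

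The other 7 regions of the RAG window and 2 of the DNTT window were called in 1 to 7 libraries. The nearest to a region of KOPN-8 only was chr11:36580047-36580592, chosen after its values were seen. Its percentiles in KOPN-8 were 71 and 58.9 for the controls and 55.3 and 57.6 for the clone, and of the 697 lists only the second of the clone held it, at 34.3. Regions at chr11:36500260-36500787 and chr11:36694435-36694750 were called in 7 libraries and missed only in the second KOPN-8 control. The 2 remaining regions around DNTT were chr10:98089115-98089390, called in the first KOPN-8 control at a fold of 4.81, and chr10:98096922-98097135, called in the second 697 control at 3.27.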

How the data were processed

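ATAC-seq peak lists of 8 libraries were used, 2 in each of 4 groups. Reads were processed by the authors with Bowtie2, MACS2 and the hg19 build, per the submitters' processing notes; versions, thresholds and read filters are not stated there. Each deposited list gives position and a fold enrichment (a ratio) per peak as the authors' caller wrote it, and lists were deposited per library. The lists have no header, and the value was read as a fold from its low values and the caller named. The lists differ in length, which can move counts and percentiles.

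Lists were merged at 1 bp overlap with Python 3.11.15, pandas 2.3.3, numpy 2.4.6 and scipy 1.17.1, and drawn with matplotlib 3.10.9. Libraries were compared by two-sided exact permutation tests, with Benjamini-Hochberg adjustment over the 6 line tests or over all shared regions. The merging and calling were tested on simulated lists. Regions named were those called in all 8 libraries, in all 4 of 1 line only, gained or lost in a clone, and the 5 per window with the highest median percentile. Members and lists were chosen with earlier results of these data known. The order of pairs within lists and percentiles at equal list length were added after seeing the data. Alternatives were the strongest 50% of each list, lists of 57154 peaks, peaks wholly inside a window, calls covering 50% of a region, merging within 100 bp, flanks of 1 Mb, a replicate block, and leaving out each library. The genes of end joining were not analysed here.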

Additional observations from a re-analysis of the deposited data

Results flagged for a closer look

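Among 69 sets of 4 libraries of a line, of which chance alone marks about 1 in 20, a library stood far from the others of its line in 2. The first library of the KOPN-8 controls had 26 peaks in the RAG window, and the other 3 KOPN-8 libraries had 24. It had the longest list of KOPN-8, and its 3.69 per 10000 peaks lay within the 3.57 to 3.77 of the others. The first library of the 697 clone ranked chr11:36653064-36653760 at a percentile of 18, and the other 697 libraries at 50, 53.7 and 53.

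Of 49 measures, 2 moved in opposite directions in the clones with both clone libraries on one side of both controls in each line. Others, such as the peaks of the RAG window (3 in 697 and -1 in KOPN-8), moved in opposite directions without that separation in both lines. With 2 libraries a group such a separation can also arise by chance. The percentile of chr11:36590656-36591007 was 16 points higher in the 697 clone than in its controls, and the difference in KOPN-8 was -23.7 points. That of chr11:36652290-36652939 was 20.4 points higher in the 697 clone, and the difference in KOPN-8 was -21 points. The difference between the lines was not tested.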

How the results depend on the processing

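Depth is unknown, the lists differ in length, and 2 libraries a group cannot pass 0.05 between arms. No alternative took a line or arm test past 0.05; the cause of the changes below was not tested.

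With lists of equal length, the arm difference in bases under peaks was -178 bp in 697 and -122 bp over both lines for DNTT and 188 bp in KOPN-8 for RAG. The RAG arm difference in KOPN-8 was 0.5 peaks and its median percentile difference between lines 3.8. Regions gained in the 697 clone were 0 in both windows, those of 697 only 1 (DNTT) and those of KOPN-8 only 1 (RAG). Percentiles were higher in the 697 clone in 3 regions of RAG and 0 of DNTT, and lower in 8 and 2.

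With the strongest 50% of each list, bases under peaks differed by 596 bp between the KOPN-8 arms (DNTT), and for RAG by -370 bp between arms over both lines and by -136 bp between lines. For RAG the arm difference over both lines was -1 peak, the line difference per 10000 peaks -0.00878 and the median percentile difference 1.66. Regions in all libraries were 8 (RAG) and 0 (DNTT), those of 697 only 1 and 0, those gained in the 697 clone 0 (DNTT) and those lost in KOPN-8 2 (RAG). Shared regions higher in 697 were 2 (RAG) and 0 (DNTT). Regions higher in the 697 clone were 2 and 0, higher in the KOPN-8 clone 0 (DNTT) and lower in it 1 (RAG).

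Calls covering 50% of a region left 1 region of KOPN-8 only (RAG) and 1 in all libraries (DNTT), and merging within 100 bp 1 of KOPN-8 only (RAG). Flanks of 1 Mb gave log2 ratios of 0.84 (DNTT) and 1.92 (RAG).

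Leaving out 1 library, bases under peaks differed between arms by -112 to 678 bp (697, DNTT), -468 to 336 bp (KOPN-8, DNTT), -810 to 420 bp (KOPN-8, RAG) and -92 to 310 bp (both lines, DNTT), with the extremes on leaving out a control. The median percentile difference between lines for RAG ran from -2.95 without the second 697 clone library to 7.92 without the second KOPN-8 control. Regions gained in 697 ran from 1 to 2 (DNTT, 2 without control 2) and 1 to 4 (RAG, 4 without clone library 1, 2 without clone library 2 or control 1). Those lost ran from 0 to 1 (DNTT without control 1, RAG without clone library 2). In KOPN-8, gained ran from 0 to 2 (RAG, without control 1) and lost from 0 to 1 (DNTT, without control 2) and 1 to 2 (RAG, without clone library 2). Shared regions higher in KOPN-8 ran from 0 to 1 (DNTT, without control 2 of either line).

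Same-numbered libraries deviated with a correlation of 0.15 in 697 and -0.01 in KOPN-8 over 13766 tiles. The labels do not say whether same-numbered libraries shared a batch, and these values cannot settle it. With a replicate block the differences were as before, for example 1622 bp between the 697 arms for RAG (exact permutation p = 0.5) and 3.25 DNTT peaks between lines (adjusted exact permutation p = 0.25), and no call changed.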
